A study of Mus musculus with 22 samples.

Results

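The genes described here are Dppa2, Dppa3, Dppa4 and Dppa5a, 4 mouse genes named as developmental pluripotency associated. They were taken by symbol from the deposited count table, as 4 of its 21881 gene symbols, and all 4 had reads. The table holds RNA sequencing counts for 8 single embryos at embryonic day 3.5, which are blastocysts, and for 7 stem cell lines with 2 libraries each. The embryos were 2 wild-type, 2 heterozygous and 4 null for Nanog, which encodes a homeodomain factor of the epiblast, and every genotype was split evenly between females and males. The lines were 2 embryonic stem (ES) lines, 1 female and 1 male, labelled as serum free, 3 trophoblast stem (TS) lines, 2 female and 1 male, and 2 male extraembryonic endoderm (XEN) lines. ES, TS and XEN lines are cultured models of the epiblast, the trophectoderm and the primitive endoderm, and all 7 are labelled wild type for Nanog. The labels name no medium for the TS and XEN lines, and give neither the Nanog allele nor the litters of the embryos. Both libraries of a line came from different passages of that line and were summed or averaged into 1 value per line.

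DPPA2 and DPPA4 are small nuclear proteins with a SAP domain, which bind each other and chromatin and are known for keeping a set of developmental and germline promoters open in pluripotent cells. Their genes lie next to each other. DPPA3, also called STELLA or PGC7, is a maternal factor of the egg that protects the maternal genome from demethylation after fertilisation and also holds back UHRF1, the cofactor of maintenance DNA methylation. Its gene lies close to Nanog. DPPA5A, also called ESG1, is a KH-domain RNA-binding protein long used as a marker of ES cells.

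Total counts per library, in mega-counts (M), ranged from 14.8 to 32.2 M in embryos and from 8.20 to 23.7 M in lines. Values are given as counts per mega-count (counts per M, CPM) of the library total, with no correction for gene length. Embryo RNA went through cDNA amplification and line RNA did not, each with its own library kit, so values of embryos and lines are set side by side and were not compared. Nanog was at 0.300 to 0.624 CPM in the 4 null embryos and at 53.6 to 137 CPM in the other 4, which fits their labels. Of 6 epiblast markers, none was at 0 in the ES libraries, where they summed to 5202 to 6253 CPM, against 347 to 876 CPM in TS and 8.19 to 12.9 CPM in XEN libraries. The 7 trophectoderm markers summed to 2823 to 8488 CPM in TS libraries and the 7 primitive endoderm markers to 10784 to 17483 CPM in XEN libraries. In embryos the epiblast markers, Nanog among them, summed to 676 to 1151 CPM in null and 1153 to 1242 CPM in Nanog-bearing embryos, and the trophectoderm markers to 2863 to 9372 CPM and 6185 to 8855 CPM. The part of these sums in the embryo results was not tested. Of the embryos, null male 2 and null female 1 stood apart: they had 809 and 570 genes with at most 3 counts although the other 7 libraries averaged at least 5 CPM, against 40 to 68 such genes in the Nanog-bearing embryos, 133 in null male 1 and 300 in null female 2. The fold changes of the 4 genes between embryos are therefore also given without these libraries.

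In the lines, the 4 genes fell into different patterns. Dppa2 and Dppa4 were high in ES and TS lines and close to 0 in XEN lines, Dppa5a was high in ES lines and low in both other lineages, and Dppa3 was at or below about 1 CPM in every line. By edgeR's quasi-likelihood test on the 7 lines, at an adjusted p under 0.05, 2 of the 4 genes were higher in ES than in TS lines, where 20% of the 14687 genes tested were called higher and 41.3% were called in all. Against XEN lines, all 4 were called higher in ES lines, where 23.4% of genes were called higher and 45.1% in all. Dppa3 was among the genes called in both comparisons, from 30 counts in ES, 2 in TS and 0 in XEN lines. Only its ES counts took it past the filter on low counts. From TS to XEN lines, 3 were called higher in TS, against 20.3% of genes called higher and 36.7% in all. The median log2 fold change of the 4 genes was 2.64, 8.39 and 4.70 in these comparisons, beside -0.02, 0.05 and 0.02 over all genes tested. Each of these medians averages Dppa3, at 4.66, 7.32 and 2.66, with 1 other gene, so each leans on its few counts and is not a summary of the set. With Dppa3 set to its lower bound, the ES against XEN median was 8.32. The comparisons share lines, so they are not independent of each other. Splits of calls depended on scaling: with library totals alone, 4561 genes were higher and 2289 lower in ES than in XEN lines, instead of 3431 and 3199, and 3840 were higher and 1553 lower in TS than in XEN lines, instead of 2976 and 2409. That scaling moved the median of all genes to 0.39 and 0.30 in these comparisons, and the calls of the 4 genes stayed the same under it.

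**Figure D1:**
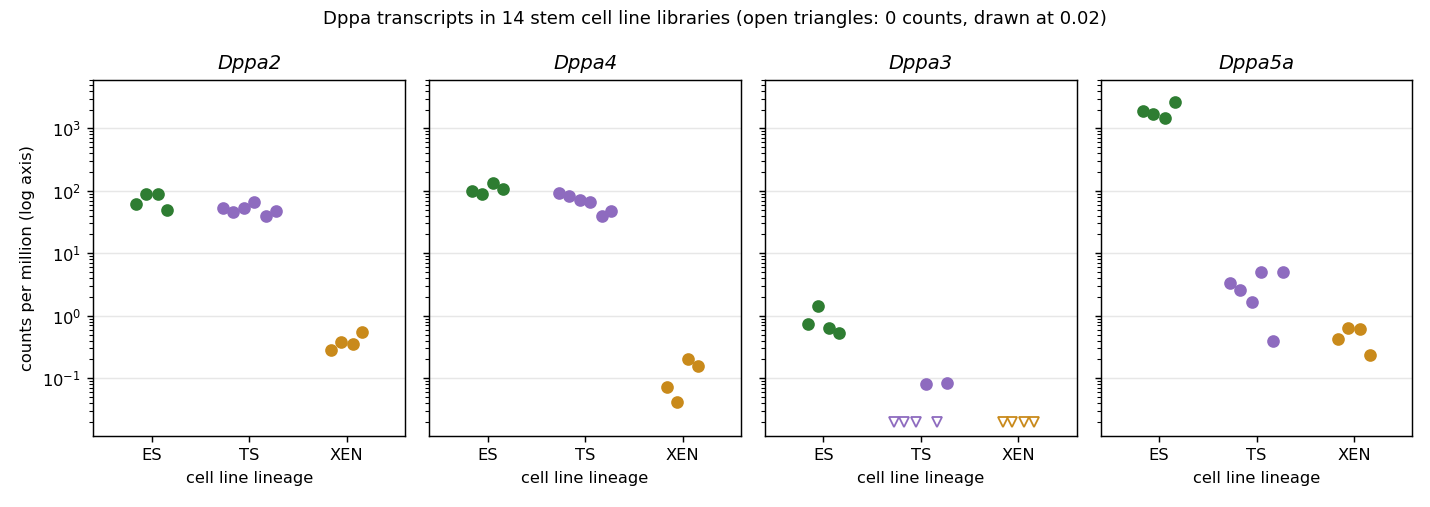
CPM (log axis) of each gene in the 14 line libraries, with 1 point per library, the libraries of a line next to each other, and open triangles for libraries with 0 counts. Dppa2 and Dppa4 stay between 39.1 and 132 CPM in all ES and TS libraries, whereas Dppa5a is at 1456 to 2625 CPM in ES libraries and at 0.237 to 4.97 CPM in all others.

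Dppa2 was measured at 60.5 and 88.3 CPM in the libraries of ES line 1 and at 90.1 and 48.7 CPM in those of ES line 2. In the 6 TS libraries it ranged from 39.5 to 66.3 CPM, with line values of 49.1, 60.5 and 44.0 CPM for TS lines 1, 2 and 3. In the 4 XEN libraries it was at 0.286 to 0.553 CPM, which is 4 to 9 counts. The ES and TS libraries overlapped, and every XEN library lay far below both. By line, ES lines 1 and 2 were at 75.2 and 69.6 CPM, above all 3 TS lines. Over lines, the mean was 72.4 ± 3.93 CPM in ES (SD, n = 2), 51.2 ± 8.44 CPM in TS (n = 3) and 0.390 ± 0.0634 CPM in XEN (n = 2), so that TS lines held 70.7% of the ES level. The ES against TS log2 fold change of 0.44 (SE 0.19, 95% interval -0.0018 to 0.88) did not pass, with an adjusted p of 0.0982 in edgeR. With limma voom and quality weights it did, with a log2 fold change of 0.38 and an adjusted p of 0.0490. Dppa2 was higher than in XEN lines by 7.19 log2 units in ES (SE 0.29, adjusted p = 1.61e-05, edgeR) and by 6.75 in TS lines (SE 0.28, adjusted p = 1.91e-05).

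Dppa4, the partner of Dppa2, gave 98.8 and 88.8 CPM in ES line 1, and 132 and 107 CPM in ES line 2. The TS libraries were spread more widely, at 91.3 and 83.6 CPM in TS line 1, 71.5 and 65.7 CPM in TS line 2, and 39.1 and 48.1 CPM in TS line 3. The 4 XEN libraries held 1, 1, 4 and 2 counts. The lowest ES library lay below the highest TS library, and TS line 3 was lowest of the 5 ES and TS lines for both Dppa2 and Dppa4. By line, Dppa4 was at 93.5 and 120 CPM in ES lines 1 and 2, and at 87.5, 68.4 and 44.0 CPM in TS lines 1, 2 and 3. Mean levels were 107 ± 18.5 CPM in ES, 66.6 ± 21.8 CPM in TS and 0.120 ± 0.0943 CPM in XEN lines, and TS lines held 62.5% of the ES level. The ES against TS log2 fold change was 0.62 (SE 0.32, 95% interval -0.12 to 1.36), which did not pass in edgeR (adjusted p = 0.153). It passed in limma voom with quality weights (0.54, adjusted p = 0.0435) and when the 14 libraries were fitted with the line as a random block (0.63, adjusted p = 0.0266). Against XEN lines the difference was 9.45 log2 units in ES (SE 0.56, adjusted p = 4.79e-05) and 8.83 in TS lines (SE 0.54, adjusted p = 6.79e-05).

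The levels of Dppa2 and Dppa4 in TS lines stood beside low levels of some ES transcripts and high levels of others in the same libraries. Nanog was at 1.40 ± 0.828 CPM in TS lines, against 642 ± 75.7 CPM in ES lines. Pou5f1, the OCT4 gene, was at 4.96 ± 1.21 CPM against 1624 ± 60.8 CPM, and Dppa5a was at 0.162% of its ES level. Sox2 and Esrrb, which TS cells are known to express, were at 206 ± 76.0 and 378 ± 104 CPM in TS lines. In ES lines they were at 742 ± 34.6 and 1149 ± 73.2 CPM. Unlike Dppa2 and Dppa4, both were called higher in ES than in TS lines in edgeR, by 1.80 (SE 0.31) and 1.55 (SE 0.23) log2 units. Of 12 further ES-associated transcripts, 6 were called higher and 2 lower in ES than in TS lines, where 41.3% of all genes were called. The 2 called lower were Dppa1 and Utf1. Utf1 was at 299 ± 16.1 CPM in TS and 181 ± 62.1 CPM in ES lines. Tex19.1, at 279 ± 79.9 and 95.8 ± 9.82 CPM, was not called (adjusted p = 0.178, edgeR). Gdf3 went the other way, at 0.0951 ± 0.0362 CPM in TS and 128 ± 29.3 CPM in ES lines. Marker lists of other cell types also differed between lineages: 6 blood markers summed to 410 to 703 CPM in ES libraries with Ptprc and Lyz2 at 0, to 133 to 914 CPM in TS libraries with none at 0, and to 1.97 to 6.23 CPM in XEN libraries with none at 0. Laptm5 made up most of the ES and TS sums, at 539 ± 167 CPM in ES and 374 ± 337 CPM in TS lines, followed by Cd68 at 15.2 ± 1.61 and 29.7 ± 4.93 CPM, while the defining leukocyte marker Ptprc was at 0 in ES and at 0.0253 ± 0.0231 CPM in TS lines. For 7 fibroblast markers the sums were 6.62 to 20.1 CPM in ES (3 at 0), 13.6 to 222 CPM in TS (none at 0) and 3.87 to 11.5 CPM in XEN libraries (2 at 0). The part of these markers in the differences of the Dppa genes was not tested.

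**Figure D2:**
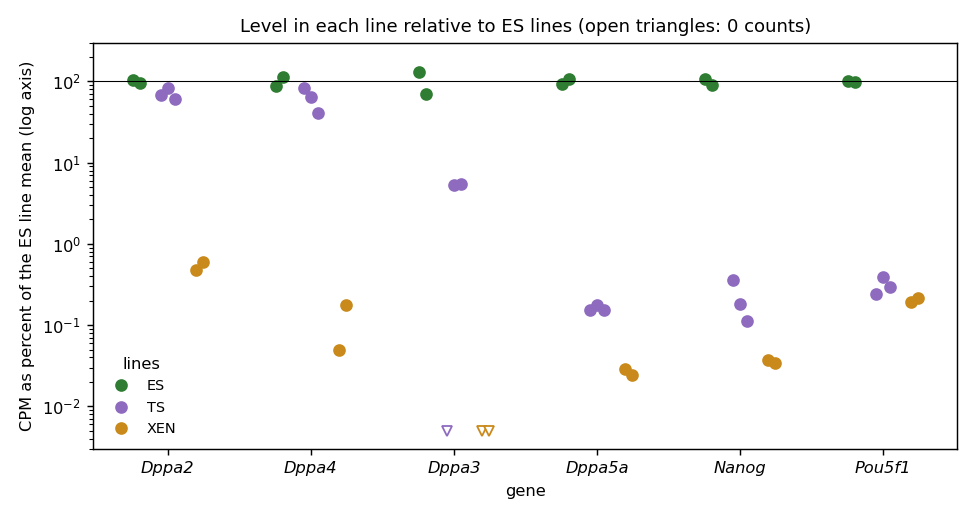
CPM of each line as a percent of the mean of the 2 ES lines (log axis), for the 4 Dppa genes, Nanog and Pou5f1, with 1 point per line and open triangles for lines with 0 counts. TS lines keep 70.7% of the ES mean for Dppa2 and 62.5% for Dppa4, while Dppa5a, Nanog and Pou5f1 are below 1% in TS and XEN lines.

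The ratio of Dppa4 to Dppa2 counts is free of library scaling, but not of gene length, cDNA amplification or library kit. It ran from 1.01 to 2.20 in the ES libraries and from 0.990 to 1.86 in the TS libraries, so that both lineages covered nearly the same range. In XEN libraries, with 1 to 9 counts behind each gene, it was 0.111 to 0.571. Gene length was taken as the union of exons over all coding transcripts, 1479 bases for Dppa4 and 2447 for Dppa2. It can be longer than any single transcript. Per kilobase of this length, Dppa4 stood above Dppa2 in ES lines (72.1 against 29.6 CPM per kb) and in TS lines (45.1 against 20.9 CPM per kb).

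Dppa5a showed the widest difference. Its ES libraries held 1890 and 1711 CPM in line 1, and 1456 and 2625 CPM in line 2. The libraries of TS lines 1, 2 and 3 held 3.34 and 2.59 CPM, 1.64 and 4.94 CPM, and 0.401 and 4.97 CPM, and the XEN libraries 0.237 to 0.634 CPM. No TS or XEN library came near the ES libraries, whereas TS line 3 library 1, with 4 counts, lay inside the XEN range. Over lines, Dppa5a was at 1915 ± 169 CPM in ES, 3.10 ± 0.281 CPM in TS and 0.512 ± 0.0649 CPM in XEN. The ES against TS difference of 9.21 log2 units (SE 0.20, adjusted p = 2.86e-06) ranked 1 of the 14687 genes by p in edgeR. So did the ES against XEN difference of 11.51 log2 units (SE 0.26, adjusted p = 4.68e-06). In ES lines Dppa5a ranked 4 of 18272 genes per kilobase, at 3094 CPM per kb.

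TS lines were called higher than XEN lines for Dppa5a, by 2.31 log2 units (SE 0.19, adjusted p = 0.000218). This call rested on line sums in which the libraries of TS line 3 differed 12.4-fold. It was lost when the 14 libraries were fitted with the line as a random block (2.06, adjusted p = 0.122), and with technical replicate 2 of every line left out (1.64, adjusted p = 0.118). Reads of Dppa5a can also be shared with Dppa5b and Dppa5c, which are 97.0% identical to its transcript over 297 aligned bases and are not rows of the count table, so its counts carry that uncertainty.

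Dppa3 was close to 0 in all lines. The ES libraries held 6, 13, 6 and 5 counts, or 0.534 to 1.41 CPM. TS lines 2 and 3 each held 1 count in their second library, TS line 1 held none, and all 4 XEN libraries held 0. A count of 0 allows up to 0.127 to 0.237 CPM in a XEN library and up to 0.182 to 0.301 CPM in a TS library with none, taking 3 counts as the limit; these limits cover counting error only. In counts pooled over lines, ES lines were 31.9-fold above TS lines with a 95% counting interval of 8.09 to 275, from 30 against 2 counts. They were at least 19.2-fold above XEN lines, against a limit of 3 counts over the 2 lines. edgeR called both differences, with adjusted p of 0.0122 and 0.00815. The first call was lost in DESeq2 (4.81, adjusted p = 0.0577) and without ES line 2 (5.05, adjusted p = 0.0534), where the lone ES line was assumed to vary like the other lines and the fold stayed as large. TS against XEN, 2 counts against 0, did not pass (adjusted p = 0.279). Without ES line 1 or either technical replicate, Dppa3 was under the filter on low counts in every comparison of lines. Dppa3-ps, which is 98.2% identical to Dppa3 over 451 aligned bases, is not a row of the table, so reads could be shared there too.

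In embryos, Dppa3 and Dppa5a had far more counts per kilobase than Dppa2 and Dppa4. Whether counts from amplified cDNA rise with gene length was not tested. Without length, means over the 8 embryos were 4856 CPM for Dppa3, 2404 for Dppa5a, 431 for Dppa2 and 192 for Dppa4. Dppa3 averaged 5444 CPM per kb over the 8 embryos and ranked 3 of 18272 genes. Dppa5a averaged 3884 CPM per kb at rank 5, Dppa2 176 CPM per kb at rank 443 and Dppa4 130 CPM per kb at rank 587. The order of Dppa3 and Dppa5a differed between embryos. Dppa5a was above Dppa3 in the wild-type female (4777 against 3171 CPM per kb), the wild-type male (4435 against 2428) and null male 1 (5845 against 3596), and Dppa3 was above Dppa5a in the other 5 embryos. These levels are means over whole embryos, in which fewer cells of a type and less RNA per cell cannot be told apart. Dppa3 alone took between 0.217% of all counts in the wild-type male and 0.961% in null male 2.

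The design asks whether loss of Nanog goes with a change in the embryo. None of the 4 genes passed edgeR's test between null and Nanog-bearing embryos, where 2 of 12965 genes, or 0.0154%, were called. At an unadjusted p under 0.05 there was 1 of the 4, Dppa3, beside 4.97% of all genes. For none of the 4 genes were all null embryos above or all below the Nanog-bearing embryos, as they were for 5.32% of all genes. DESeq2, which called 87 genes, also called none of the 4, and limma voom called 0 genes of any kind, Nanog included. Nor is any of them among the 78 genes of the authors' deposited table of Nanog-regulated genes. The median log2 fold change of the 4 genes was 0.15, beside -0.05 over all genes tested. The p-values measure the spread between these single embryos, whose litters are not given.

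**Figure D3:**
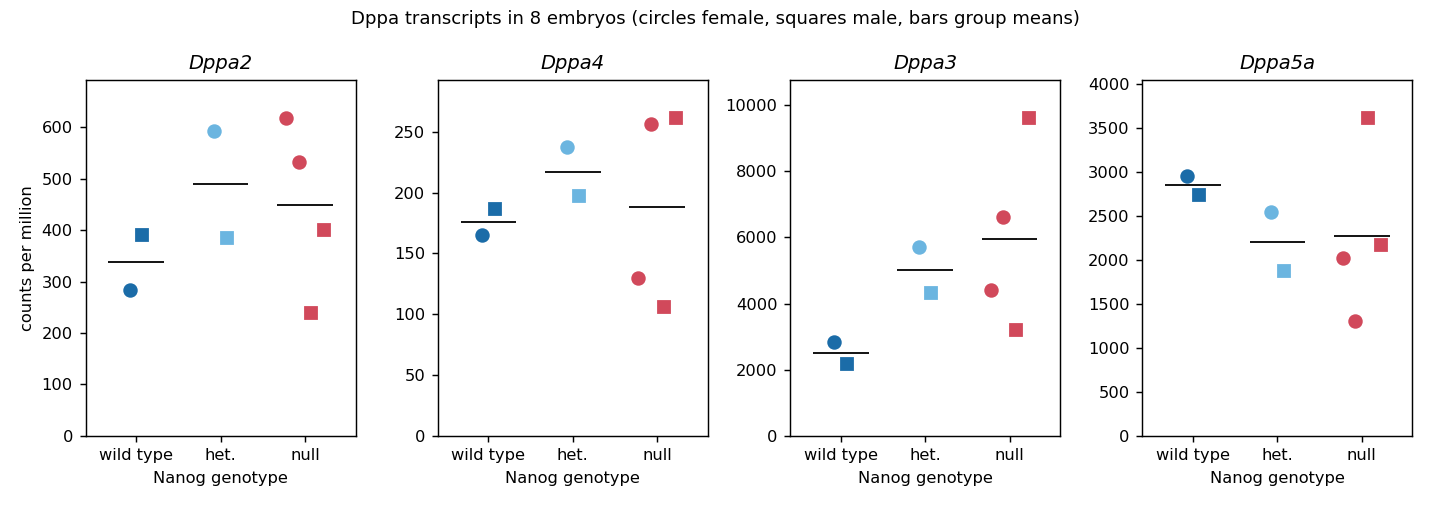
CPM of each gene in the 8 embryos by Nanog genotype, with circles for females, squares for males and bars for group means. For Dppa4 the null embryos lie on both sides of the 4 Nanog-bearing embryos, and for Dppa3 both wild-type embryos, at 2829 and 2166 CPM, lie below the other 6.

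Dppa3 gave 2829 CPM in the wild-type female and 2166 CPM in the wild-type male, and 5697 and 4318 CPM in the heterozygous female and male. The null embryos were at 4400 and 6616 CPM (females 1 and 2) and at 3208 and 9614 CPM (males 1 and 2). Both wild-type embryos were below the other 6, while null and heterozygous embryos overlapped. The group means were 2497 ± 469 CPM in wild type (SD, n = 2), 5007 ± 975 CPM in heterozygous (n = 2) and 5959 ± 2816 CPM in null embryos (n = 4). Null against Nanog-bearing embryos gave a log2 fold change of 0.91 (SE 0.38, 95% interval 0.07 to 1.75), with an unadjusted p of 0.0357 and an adjusted p of 0.931 in edgeR. Against wild type alone it was 1.43 (SE 0.49, 95% interval 0.34 to 2.51), with an unadjusted p of 0.0152 and an adjusted p of 1. In that comparison 0.0154% of genes were called and 3.86% had an unadjusted p under 0.05. Heterozygous against wild type gave 1.03 (SE 0.53, 95% interval -0.15 to 2.20, adjusted p = 1). These contrasts share embryos. Without null female 1 and null male 2, the null against Nanog-bearing difference was 0.48 (SE 0.22, adjusted p = 0.903) and that against wild type 0.99 (SE 0.26, adjusted p = 0.953). Leaving out null male 2 alone took the first from 0.91 to 0.36.

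Dppa2 was at 284 and 391 CPM in the wild-type female and male, and at 593 and 385 CPM in the heterozygous pair. The null females held 618 and 533 CPM and the null males 239 and 401 CPM, so the null embryos spanned the whole range of the others. Means were 338 ± 75.7 CPM in wild type, 489 ± 148 CPM in heterozygous and 448 ± 165 CPM in null embryos. The null against Nanog-bearing log2 fold change was 0.21 (SE 0.31, 95% interval -0.48 to 0.90, adjusted p = 0.998, edgeR). Its sign turned without the libraries that stood apart (-0.09) and without the wild-type female (-0.07).

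Dppa4 was at 165 and 186 CPM in wild-type and at 237 and 197 CPM in heterozygous embryos, female first. Null female 1 and null male 1 were lower than all of these, at 130 and 106 CPM, and null female 2 and null male 2 higher, at 256 and 262 CPM. No null embryo lay within the range of the Nanog-bearing embryos, and their mean of 188 ± 82.1 CPM lay between those of wild-type (176 ± 15.1 CPM) and heterozygous embryos (217 ± 28.3 CPM). The coefficient of variation of Dppa4 was 43.6% among null and 15.4% among Nanog-bearing embryos, and this difference in spread was not tested. The log2 fold change was 0.09 (SE 0.37, 95% interval -0.73 to 0.91, adjusted p = 1), and its sign turned with library totals alone (-0.05), in limma voom (-0.18) and without the libraries that stood apart (-0.13). Leaving out null male 2 alone gave -0.30.

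Dppa5a gave 2957 and 2746 CPM in wild-type and 2542 and 1877 CPM in heterozygous embryos, female first. The null females held 2022 and 1307 CPM, and the null males 3618 and 2166 CPM. Null male 1 was above every other embryo and null female 2 below every other. The means were 2851 ± 150 CPM in wild type, 2210 ± 470 CPM in heterozygous and 2278 ± 969 CPM in null embryos. The null against Nanog-bearing log2 fold change was -0.09 (SE 0.29, 95% interval -0.74 to 0.56, adjusted p = 1.00). Without the libraries that stood apart it was -0.06 (SE 0.38). It turned positive without the heterozygous female (0.17), null female 2 (0.15) or the wild-type female (0.01).

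Null male 1 was the lowest of the 4 null embryos for Dppa2, Dppa3 and Dppa4 and the highest for Dppa5a. Over the 8 embryos, the log2 CPM of Dppa5a had negative correlations with those of the other genes, with Pearson's r of -0.58 with Dppa2, -0.39 with Dppa3 and -0.47 with Dppa4. Among Dppa2, Dppa3 and Dppa4, r was 0.56 (Dppa2 with Dppa4), 0.60 (Dppa2 with Dppa3) and 0.72 (Dppa3 with Dppa4), at ranks 399 to 1086 of 6954 candidates. These describe 8 points that share library and depth.

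**Figure D4:**
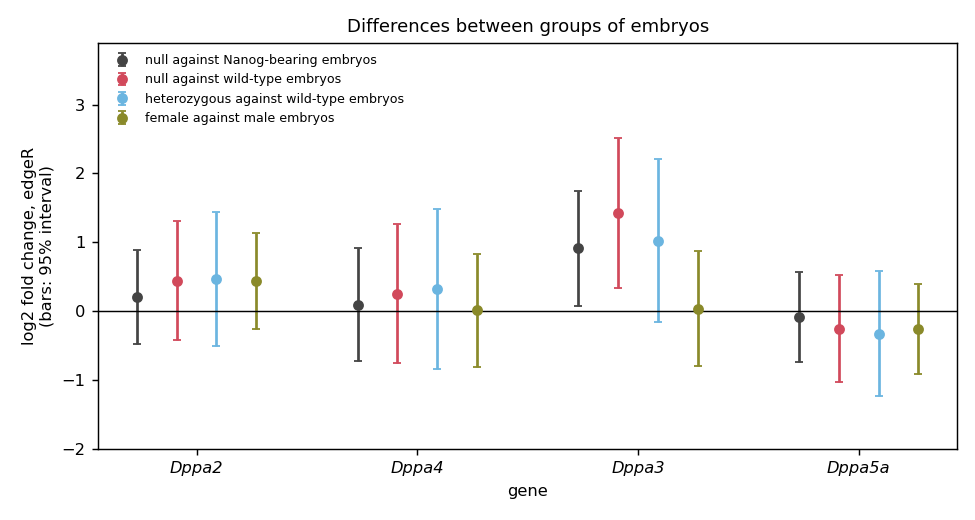
Log2 fold changes from edgeR with 95% intervals for 4 comparisons between groups of embryos, which share embryos with each other. Only the Dppa3 intervals for null against Nanog-bearing (0.07 to 1.75) and null against wild-type embryos (0.34 to 2.51) lie above 0, and neither passed after adjustment over 12965 genes.

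Neither heterozygosity nor sex gave a call among the 4 genes. In edgeR 0% of the 12965 genes were called between heterozygous and wild-type embryos, and 0.825% passed at an unadjusted p under 0.05. For Dppa2, Dppa4 and Dppa5a that log2 fold change was 0.47 (SE 0.44), 0.32 (SE 0.52) and -0.33 (SE 0.41). Between the sexes 0.00771% of genes were called and 2.95% had an unadjusted p under 0.05, and the female against male log2 fold changes were 0.44 for Dppa2 (SE 0.31), 0.04 for Dppa3 (SE 0.37), 0.01 for Dppa4 (SE 0.37) and -0.26 for Dppa5a (SE 0.29). The sign of the Dppa4 value turned without the filter on low counts (-0.02). None of these passed at an unadjusted p under 0.05, and neither DESeq2, which called 76 and 63 genes in these comparisons, nor limma voom, which called 0 and 2, called any of the 4. Without null female 1 and null male 2, the heterozygous against wild-type values were 0.46, 1.02, 0.28 and -0.32 for Dppa2, Dppa3, Dppa4 and Dppa5a, and the female against male values 0.50, 0.67, 0.51 and -0.24, with none called.

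A test of the difference of the null effect between the sexes called 0% of genes, and 3.96% had an unadjusted p under 0.05. Dppa5a was among these. Both null females were below both Nanog-bearing females, whereas the null males overlapped the Nanog-bearing males. The interaction was -1.11 log2 units (SE 0.45, 95% interval -2.14 to -0.08), with an unadjusted p of 0.0373 and an adjusted p of 1.00 in edgeR, 0.616 in DESeq2 and 1.00 in limma voom. Dppa2 (0.52, SE 0.62), Dppa3 (-0.80, SE 0.85) and Dppa4 (-0.17, SE 0.75) gave intervals that included 0. Without null female 1 and null male 2, which leaves 1 null embryo per sex, the interaction was -1.63 for Dppa5a (SE 0.38, adjusted p = 0.116) and 1.06 for Dppa2 (SE 0.57), and it turned positive for Dppa3 (0.73) and Dppa4 (1.29), with none called.

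The Dppa4 to Dppa2 count ratio was below 1 in every embryo, from 0.210 in null female 1 to 0.652 in null male 2. This ratio was not compared with that in lines, whose libraries were made differently. Its mean log2 value was -1.28 ± 0.69 in null (n = 4) and -1.03 ± 0.22 in Nanog-bearing embryos (n = 4). The difference of -0.24 gave p = 0.686 in a two-sided exact permutation test over 70 splits, whose smallest possible p is 0.0286. Without null female 1 the difference was 0.09, and without null female 1 and null male 2 it was -0.08.

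**Figure D5:**
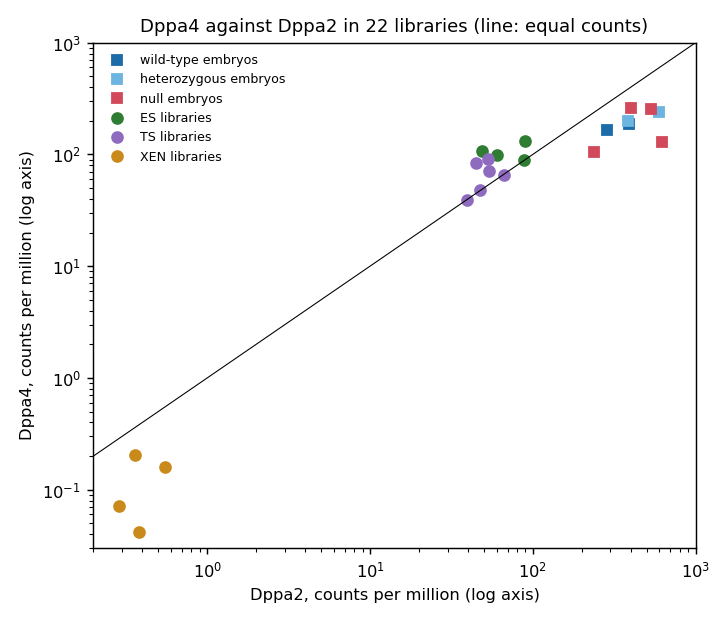
Dppa4 against Dppa2 in CPM (log axes) in the 22 libraries, with squares for embryos, circles for line libraries and a line where both counts are equal. Embryos lie below the line with ratios from 0.210 to 0.652, ES and TS libraries lie near or above it with ratios from 0.990 to 2.20, and XEN libraries sit at 1 to 9 counts. Embryo and line libraries differ in amplification and kit, so their ratios were not compared.

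Genes whose pattern was most like each member were taken by Pearson's r of log2 CPM, among genes with a mean log2 CPM of at least 3. Over the 7 lines, Dppa2 was most like Hspbap1, Dsg2 and Bmp4 (r of 0.998, 0.996 and 0.996), and its neighbour Dppa4 had rank 4 of 8799 candidates (0.996). Dppa4 was most like Mrpl45, Pfkp and Hook1 (0.998, 0.998 and 0.997), again with its neighbour at rank 4. Dsg2, a desmosomal cadherin, averaged 166 CPM in ES, 156 CPM in TS and 4.49 CPM in XEN lines, and Bmp4, a signalling ligand, 77.9, 54.0 and 0.0842 CPM. Dppa5a was most like Trim28, Zbtb24 and Fam117b (0.998, 0.996 and 0.996). Trim28, a corepressor that partners KRAB zinc finger proteins, averaged 1911, 715 and 475 CPM in ES, TS and XEN lines. Dppa3 came closest to Siah1a, Dcun1d3 and U2af1 (0.987, 0.986 and 0.983), from few counts. The 7 points come from 3 lineages and share library and depth.

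Over the 8 embryos other genes were close. Among the 3 closest to each member were Hnrnpf, Rnf113a2 and Necap1 for Dppa2 (0.95, 0.93 and 0.92), Tmed5, Mrpl48 and Mrpl18 for Dppa3 (0.969, 0.963 and 0.956), Riok1 and Chpt1 for Dppa4 (0.939 and 0.932), and Zfhx3, Pigp and Gbas for Dppa5a (0.928 each for Zfhx3 and Pigp, and 0.927). There Dppa4 had rank 680 of 6954 candidates for Dppa2.

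The genes next to these 4 on the chromosome, in RefSeq order, had levels of their own. Morc1, a germline gene beside Dppa2, was at 184 ± 33.3 CPM in ES lines but at 0.249 ± 0.208 CPM in TS lines, where Dppa2 and Dppa4 were at 51.2 and 66.6 CPM. It was higher in ES than in TS lines by 9.56 log2 units (SE 0.61, adjusted p = 0.000107, edgeR). Nanog and Gdf3, a TGF-beta family ligand, flank Dppa3 and were at 642 and 128 CPM in ES lines, where Dppa3 was at 0.836 ± 0.360 CPM. In the embryos, Gdf3 was at 37.4 ± 11.9 CPM and Slc2a3, a glucose transporter on the far side of Nanog, at 915 ± 326 CPM (n = 8). Ooep, a KH-domain gene of the oocyte beside Dppa5a, was at 88.4 ± 27.3 CPM in ES and 0.0553 ± 0.0315 CPM in TS lines and at 40.8 ± 18.1 CPM in embryos. It was higher in ES than in TS lines by 10.53 log2 units (SE 0.45, adjusted p = 2.39e-05). Of the neighbours tested between null and Nanog-bearing embryos, Nanog itself was called, at -7.61 log2 units (SE 0.51, adjusted p = 0.000501).

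Of 13 genes listed as regulated by DPPA2 and DPPA4 in other work, 11 were in the table, 4 had enough counts to test in embryos and 6 in lines. None was called in embryos. Their log2 fold changes ran from -9.57 for Mael (SE 2.99) to 3.64 for Tdpoz1 (SE 1.67), so the median of 0.85 stands between opposite directions. Mael was at 0 in null, 5.50 ± 7.71 CPM in wild-type and 4.10 ± 1.20 CPM in heterozygous embryos. In lines, 5 of 6 were higher in ES than in TS lines (median 4.58) and 2 of 6 were higher in ES than in XEN lines (median 2.90). Over all genes tested, 20% and 23.4% were called higher in these comparisons. Syce1 had 737 counts in ES and 13 in TS lines, and Zscan4f 105 and 6. Such genes passed the filter on low counts only through ES lines, and the Zscan4 copies are not separate genes for counting. The number of higher calls is therefore no test of the list. Syce1, a synaptonemal complex gene, was at 20.2 ± 1.28 CPM in ES, 0.179 ± 0.193 CPM in TS and 0.0576 ± 0.00637 CPM in XEN lines. Zscan4f and Zscan4c, markers of a 2-cell-like state, were at 2.84 ± 1.66 and 2.79 ± 1.59 CPM in ES lines, and their near-identical copies can share reads. Both were at 0.0892 ± 0.117 CPM in TS lines. Mael, a piRNA pathway gene, was at 5.58 ± 4.15 CPM in ES and 0.732 ± 0.642 CPM in TS lines and listed at 0 in XEN lines.

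Around DPPA3, 12 genes of the DNA methylation machinery were examined. None of the 12 was called between null and Nanog-bearing embryos (median -0.61, beside -0.05 over all genes). Values of this list are not given without null female 1 and null male 2. Zfp57, a zinc finger protein of imprint maintenance, was at 28.8 ± 8.55 CPM in null embryos, against 112 ± 2.69 CPM in wild-type and 84.2 ± 0.195 CPM in heterozygous embryos, with a log2 fold change of -1.65 (SE 0.35, unadjusted p = 0.000762, adjusted p = 0.931). Uhrf1 was at 113 ± 18.3 CPM in null, 211 ± 27.0 CPM in wild-type and 233 ± 36.6 CPM in heterozygous embryos (-0.84, SE 0.27, adjusted p = 0.931). Tet1, a methylcytosine dioxygenase, was at 63.9 ± 33.2 CPM in null and 126 ± 30.2 CPM in wild-type embryos (-0.89, SE 0.37, adjusted p = 0.931). In lines, 6 of 12 were higher and 2 lower in ES than in TS lines, and 7 higher and 2 lower in ES than in XEN lines, where 41.3% and 45.1% of all genes were called in either direction. Tet1 was at 476 ± 2.83 CPM in ES and 27.9 ± 9.10 CPM in TS lines, and Uhrf1 at 656 ± 18.9 and 192 ± 8.67 CPM. Both were called, with log2 fold changes of 4.04 (SE 0.33, adjusted p = 0.000259) and 1.71 (SE 0.15, adjusted p = 0.000313).

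Of 18 germ cell genes, 15 were tested in embryos and none was called (median -0.79, beside -0.05 over all genes). Some of these values are very uncertain, such as that of Kit with an SE of 5.45 log2 units. The list medians in embryos are not given without null female 1 and null male 2, so the part of those libraries in them was not tested. In lines, 8 of 17 tested were higher in ES than in TS lines and none lower, and 15 were higher and 1 lower in ES than in XEN lines, beside 20% and 23.4% of all genes called higher. Dazl, an RNA-binding protein of germ cells, was at 41.9 ± 18.2 CPM in ES, 1.14 ± 0.529 CPM in TS and 0.124 ± 0.176 CPM in XEN lines. Rnf17, a Tudor-domain gene, was at 24.2 ± 13.1 CPM in ES, 35.2 ± 20.4 CPM in TS and 0.0865 ± 0.00956 CPM in XEN lines, so that it was high in both lineages with Dppa2 and Dppa4. Other members did not share this: Kit and Tdrd12, with the smallest p in ES against TS, were higher in ES by 4.29 (SE 0.50) and 5.23 (SE 0.78) log2 units. Of 15 oocyte and maternal transcripts, 8 were tested in embryos with none called. Only 4 were tested in lines, with 2 higher and 2 lower in ES than in TS lines, where 41.3% of all genes were called in either direction.

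Counts of calls in the next lists stand beside shares over all genes tested. For ES against TS lines 20% were called higher and 41.3% in all, and for ES against XEN lines 23.4% and 45.1%. Between null and Nanog-bearing embryos 0.0154% were called. Of 5 KH-domain relatives of Dppa5a, 2 were tested in lines and both were higher in ES than in TS and XEN lines, with Ooep as given above. Only its ES counts took Ooep past the filter on low counts, so its direction was set by that filter. The 5 were tested in embryos and none was called (median 0.16). All 14 core pluripotency genes were higher in ES than in TS lines (median 5.31) and 13 of 14 higher than in XEN lines (median 9.43). In null embryos, Nanog was lower and the other 13 were not called (median -0.40). Of 12 further ES-associated transcripts, 6 were higher and 2 lower in ES than in TS lines, 8 higher and 1 lower than in XEN lines, and none was called in null embryos (median -0.18). For the genes around Nanog and Dppa3, 5 of 6 tested were higher and 1 lower in ES than in TS lines, and 2 of 5 tested in embryos were lower in null embryos. Those 2 were Nanog and its pseudogene Nanogpd, whose reads can be shared.

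Dppa1, which shares the name but is not among the 4 genes, ran the other way in lines. It had 0 counts in all ES and XEN libraries and 102 counts in the TS libraries, at 1.33 ± 0.576 CPM over the 3 TS lines. In embryos it was at 553 ± 26.1 CPM in wild type, 589 ± 8.30 CPM in heterozygous and 623 ± 172 CPM in null embryos, with a null against Nanog-bearing log2 fold change of 0.22 (SE 0.26, adjusted p = 0.998).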

How the data were processed

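RNA from 8 embryos and 14 line libraries was sequenced by the authors, who deposited 1 table of raw counts per gene symbol, as whole numbers, for all 22 libraries. The submitters' processing notes name genome build mm9 and, as tools, edgeR and TopHat 1.3.1. How reads were counted, on which annotation and with or without strand, is not given in the sources used here. Another table, deposited by the authors, holds a direction word (kind of value: other) for Nanog-regulated genes, and its 22 value columns were not used.

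Counts were tested with the quasi-likelihood test of edgeR 4.0.16 in R 4.3.3 (TMM scaling, filterByExpr, robust shrinkage) on the whole table, 12965 genes in embryos and 14687 in lines, with Benjamini-Hochberg adjustment over all genes of a comparison and a threshold of 0.05. Embryos were fitted together with genotype and sex as terms, and Nanog-bearing stands for the mean of the wild-type and heterozygous groups, with equal weight. For the lines, counts of both libraries of a line were summed. The scripts were tested on simulated counts. Alternatives were DESeq2 1.42.0, limma 3.58.1 voom with quality weights, other scalings, no filter, no sex term, a fit of the 14 line libraries and leaving out embryos, lines or replicates. Each SE was derived from the fold change and its F statistic. Correlations used log2 CPM with a prior count of 2. Counting intervals are at 95% and cover counting error only.

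Lengths and near copies came from GENCODE M21 and neighbour order from RefSeq, both on GRCm38, so no coordinates are printed. Each length is the union of exons of the protein-coding transcripts of a gene. The 4 genes and the lists were chosen with earlier results of these data known. Named were the 4 genes, Nanog, the 3 genes most like each member in lines and in embryos (no predicted genes), up to 3 members of each list by smallest p, and neighbours; 1 gene of like pattern is not reported here, and Dppa1 and Sox2 were added after their values were seen. The technical replicate number of the line libraries does not tie libraries of different lines together: deviations from the lineage means correlated at -0.33 to 0.14 over 21 pairs of lines.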

Additional observations from a re-analysis of the deposited data

How the results depend on the processing

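Of 485 alternatives run for 33 values of the 4 genes and their ratio, 441 kept the direction and the side of the threshold, 35 turned the direction, all in embryo comparisons without a call, 5 lost a call and 4 gained one. The cause was not tested. For null against Nanog-bearing embryos, Dppa2 was -0.0877 without null female 1 and null male 2 (an alternative chosen after seeing the data), and leaving out 1 embryo at a time gave -0.0661 to 0.54. Dppa4 was -0.0525 with library totals, -0.18 in limma voom and -0.13 without the pair, with -0.30 to 0.34 when leaving out 1 embryo. Dppa5a ranged from -0.36 to 0.17, and Dppa3 from 0.36 to 1.14. Against wild type, leaving out 1 embryo gave -0.11 to 1.11 for Dppa2 and -0.17 to 0.52 for Dppa4, which was -0.0265 in limma voom. Heterozygous against wild type gave -0.0791 to 1.14 for Dppa2 and -0.93 to 0.13 for Dppa5a. Female against male gave -0.16 to 0.58 for Dppa3 and -0.20 to 0.40 for Dppa4, which was -0.0176 with no filter. For the interaction with sex, Dppa3 ranged from -1.45 to 0.45 and was 0.73 without the pair. Dppa4 ranged from -0.79 to 0.87 and was 0.0031 with library totals, 0.0845 in limma voom and 1.29 without the pair. The difference of the log2 Dppa4 to Dppa2 ratio ranged from -0.46 to 0.0854.

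In lines, Dppa2 in ES against TS passed in limma voom (0.38, adjusted p = 0.0490). Dppa3 in ES against TS did not pass in DESeq2 (4.81, adjusted p = 0.0577) and ranged from 3.98 to 5.12 when a line was left out, except ES line 1; without that line or either technical replicate it was under the filter on low counts. Dppa4 in ES against TS passed in limma voom (0.54) and in the fit of 14 libraries (0.63). In the fit with the replicate number as a block (replicate block) it was also 0.63 (adjusted p = 0.0339). Dppa5a in TS against XEN did not pass in the fit of 14 libraries (2.06, adjusted p = 0.122) nor with the replicate block (2.17, adjusted p = 0.0656), and ranged from 1.64 to 2.83 when a line or replicate was left out. The block changed no other call of the 4 genes beyond those of the fit of 14 libraries, whose libraries share only a number.

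Counts of genes called in embryos depended on the tool. Null against Nanog-bearing gave 2 in edgeR, 87 in DESeq2, 50 with no filter, 0 in limma voom, 1 with library totals, 1 without the pair and 1 to 2 when leaving out 1 embryo. Null against wild type gave 2, 94, 37, 0, 1, 1 and 1 to 3, and heterozygous against wild type 0 in edgeR, 76 in DESeq2 and 4 with no filter. Female against male gave 1, 63 in DESeq2, 24 with no filter, 2 in limma voom, 0 with library totals, 0 without the pair and 0 to 2. The interaction gave 0, 102 in DESeq2, 17 with no filter, 51 without the pair and 0 to 238, the last without null male 1. ES against TS gave 6063 genes, and 2429 without ES line 1 or 2827 without ES line 2. ES against XEN gave 6630, and 4071 or 3997 without those lines. With 2 to 4 samples a group and adjustment over all genes, a missing call does not show that groups were alike. The printed intervals give the range of differences that the fits allow for a single gene.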
